A study of Mus musculus with 6 samples.

Results

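Interferon regulatory factor (IRF) genes were followed in CD4+ effector T cells sorted by activity of the transporter Mdr1. The 8 genes Irf1, Irf2, Irf3, Irf4, Irf5, Irf7, Irf8 and Irf9 were taken by symbol from the 23366 genes of the count table, and all 8 passed the filter on low counts, which left 10897 genes to test. Effector T cells on the FVB/N background had been given to Rag-deficient hosts, and 6 weeks later were sorted from the mesenteric nodes. Such hosts lack T and B cells of their own but keep other blood cells. The Mdr1+ fraction held cells low in rhodamine 123 (Rh123), a dye that Mdr1 pumps out, and the Mdr1- fraction held cells high in the dye. Each fraction had 3 RNA-seq libraries. The labels enter the fractions as a genotype, but both come from a sort for transporter activity. They do not say which Rag gene was lost, how old the hosts were or whether a library is 1 mouse or a pool, so p-values cover only the spread among these libraries, which may be technical.

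IRFs are transcription factors that share a DNA-binding domain at their amino-terminal end, which recognises repeats of GAAA in interferon-stimulated response elements (ISREs). IRF3, IRF5 and IRF7 are switched on by kinases downstream of nucleic acid sensors and drive interferon genes, IRF1 and IRF2 act on the genes of the interferon gamma response with largely opposing effects, and IRF9 is the DNA-binding part of the complex ISGF3. IRF4 and IRF8 are restricted mostly to blood cells and bind together with partners such as BATF and PU.1. In CD4+ T cells IRF4 is induced by antigen receptor signals and is required for effector programs, Th17 cells among them.

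The promoters of the one IRF gene that passed the test between fractions, Irf7, and of the 3 whose upstream sequence held an element for an interferon-activated factor are given here as the 250 bases before the annotated start (RefSeq, build GRCm38.p6, another build than the authors' mm9). Capitals mark matches to the ISRE letters (GAAA, any 2 bases, GAAA) or the STAT element (GAS) letters TTCNNNGAA, searched on both strands, and to TATAAA, searched on the gene's strand.
Irf7 (GRCm38.p6 chr7:141266425-141266674, minus strand): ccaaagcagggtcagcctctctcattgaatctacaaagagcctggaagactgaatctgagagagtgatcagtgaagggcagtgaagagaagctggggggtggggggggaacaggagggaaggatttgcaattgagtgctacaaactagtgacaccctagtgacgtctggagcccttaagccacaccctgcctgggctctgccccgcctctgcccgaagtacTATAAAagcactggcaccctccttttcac
Irf1 (GRCm38.p6 chr11:53769764-53770013, plus strand): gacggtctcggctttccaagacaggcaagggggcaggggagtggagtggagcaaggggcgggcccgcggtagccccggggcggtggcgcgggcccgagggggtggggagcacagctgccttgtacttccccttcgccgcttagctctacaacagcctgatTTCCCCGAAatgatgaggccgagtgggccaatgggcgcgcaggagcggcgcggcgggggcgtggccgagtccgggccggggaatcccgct
Irf2 (GRCm38.p6 chr8:46739495-46739744, plus strand): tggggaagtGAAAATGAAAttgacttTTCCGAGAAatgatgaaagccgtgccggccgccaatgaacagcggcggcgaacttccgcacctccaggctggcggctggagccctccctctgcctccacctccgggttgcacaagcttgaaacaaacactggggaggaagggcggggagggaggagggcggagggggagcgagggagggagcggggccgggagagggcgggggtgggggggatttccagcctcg
Irf8 (GRCm38.p6 chr8:120736108-120736357, plus strand): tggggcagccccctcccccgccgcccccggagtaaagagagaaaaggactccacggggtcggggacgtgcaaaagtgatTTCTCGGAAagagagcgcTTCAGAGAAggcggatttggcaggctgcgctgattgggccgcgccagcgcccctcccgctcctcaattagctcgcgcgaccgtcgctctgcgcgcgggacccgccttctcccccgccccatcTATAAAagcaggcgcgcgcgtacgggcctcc
The table held 11 such windows for the 8 genes. The ISRE letters stood in 1 of them, at bases 241 to 232 before the start of Irf2. The GAS letters stood once before Irf1, at bases 90 to 82, once before Irf2, at bases 224 to 216, and at 2 places before Irf8. TATAAA lay at bases 29 to 24 before the start of Irf7, and it was also found before Irf4 and Irf8. The AP-1 letters TGANTCA were in no window of the 8 genes. Over all 32851 windows of this length, 2.98% held the ISRE letters, 7.02% the GAS letters, 6.75% the AP-1 letters and 7.59% TATAAA. A match of letters is a description and does not show binding.

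The values of replicate 3 of both fractions were deposited in another row order than the gene names and were put back in order before any test. Totals in genes were 2220691 to 20771456 counts in Mdr1+ and 5862443 to 10530324 in Mdr1- libraries, so 3 counts correspond to between 0.144 and 1.35 CPM (counts scaled to library size). The shallowest, Mdr1+ replicate 3, stood apart from the other 5 along principal component 1 (59.2% of the variance). Abcb1a, which encodes Mdr1, was higher in Mdr1+ cells (162 CPM, against 62.8 CPM in Mdr1- cells, adjusted p = 0.024). The 11 T cell markers were all tested and 0 passed, and their sum was 6233 to 7348 CPM in Mdr1+ and 6285 to 7215 CPM in Mdr1- libraries. All 12 markers of cycling cells (Mki67, Top2a, Ccna2, Ccnb1, Ccnb2, Cdk1, Mcm2, Mcm5, Rrm2, Birc5, Aurkb and Bub1) fell, with sums of 586 to 700 CPM in Mdr1+ and 2377 to 3600 CPM in Mdr1- libraries. The call of all 12 stands beside 1.95% of all tested genes called lower. Without replicate 2 of both fractions 8 of the 12 were called. Without replicate 3 of both 0 were, and that fit called 0 genes higher and 0 lower over all genes. With the replicate number as a block and without replicate 3, 10 of the 12 were called lower. Their part in the IRF values was not tested. In these bulk samples fewer cells that express a gene and less RNA per cell cannot be told apart.

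Mdr1+ cells had more Irf7 transcript than Mdr1- cells, at about 1.90 times the level, and no other IRF gene passed over all genes tested. In Mdr1+ over Mdr1- 6 of the 8 genes had a positive log2 fold change, Irf5 was near 0 and Irf4 was negative. The call of 1 higher and 0 lower among 8 stands beside 0.275% of all tested genes called higher and 1.95% called lower (edgeR quasi-likelihood test, adjusted p under 0.05). Libraries of one replicate number deviated together, and with that number as a block Irf7, Irf1 and Irf9 rose and none fell, beside 5.81% of all genes higher and 6.57% lower. DESeq2 called 1 of the 8 higher and 0 lower, beside 0.868% and 3.22% of the genes it tested. In all 3 pairs of libraries of one number 6 of the 8, other than Irf4 and Irf5, were higher in Mdr1+, beside 28.2% of all tested genes. The median log2 fold change was 0.36 over the 8 genes and 0.04 over all tested genes. Values that follow are TMM-scaled CPM unless stated, and fold changes are log2 of Mdr1+ over Mdr1- with their standard errors.

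Irf7, the IRF that amplifies type I interferon production, was at 147, 181 and 173 CPM in the Mdr1+ libraries of replicates 1, 2 and 3 and at 93.9, 89.5 and 80.8 CPM in the Mdr1- libraries. Every Mdr1+ library lay above every Mdr1- library, and the spread within each fraction was small beside the gap between them. Irf7 averaged 167 ± 18.0 CPM over the Mdr1+ and 88.1 ± 6.64 CPM over the Mdr1- libraries (SD, n = 3 each). Its log2 fold change was 0.92 ± 0.16 (95% interval 0.56 to 1.29, adjusted p = 0.022 in edgeR's quasi-likelihood test), which placed it at percentile 97.8 of all tested genes. The libraries held 367 to 3882 counts of Irf7 in Mdr1+ and 476 to 1035 in Mdr1-, so counting error was small. Ratios within replicate numbers were 1.57, 2.03 and 2.14. The call was kept with the replicate block (0.92 ± 0.11, adjusted p = 0.0015) and in DESeq2 (0.91, adjusted p = 7.6e-05). Without the block it was lost when single libraries were left out: adjusted p was 0.076 without Mdr1+ replicate 2, 0.064 without Mdr1+ replicate 3, 0.073 without Mdr1- replicate 1, 0.06 without Mdr1- replicate 2 and 0.16 without Mdr1- replicate 3. It held without Mdr1+ replicate 1 (adjusted p = 0.042). Without replicate 3 of both fractions Irf7 was at 0.81 (adjusted p = 0.31, and 0.0015 when blocked), and without replicates 1 or 2 of both the unblocked fits gave 0.12 and 0.15. The log2 fold change itself stayed between 0.81 and 0.99 in all 16 alternative fits. Phrf1, whose exons overlap 1.2% of those of Irf7 on the opposite strand, differed by 0.04 on the log2 scale (adjusted p = 0.97).

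**Figure D1:**
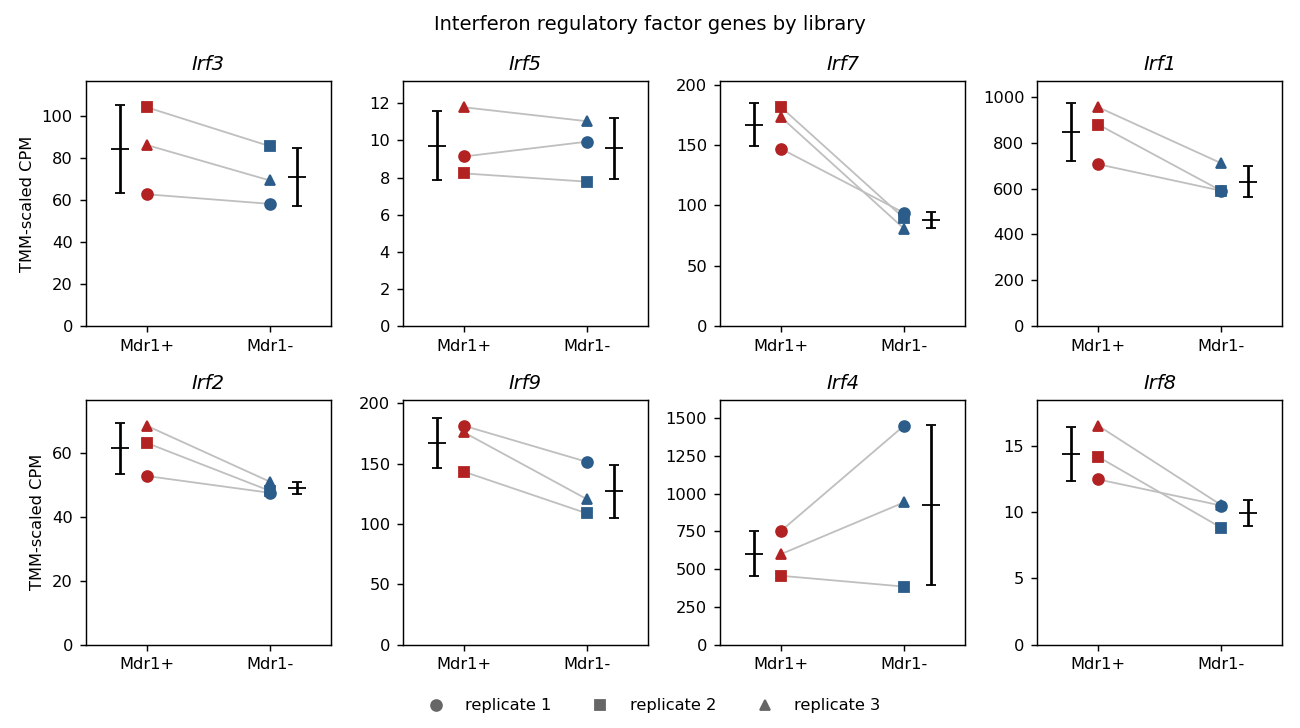
Level of each of the 8 IRF genes in TMM-scaled CPM (y axes, linear from 0), with Mdr1+ left and Mdr1- right. A symbol is a library, its shape the replicate number; grey lines join one number, and black marks give the mean with the SD (n = 3). Irf7, Irf2 and Irf8 have no overlap between fractions, and the Mdr1- libraries of Irf4 run from 384 to 1451 CPM.

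Irf3, which is present in most cells and is activated by phosphorylation rather than by more transcript, differed by replicate number more than by fraction. It was at 62.8, 104 and 86.3 CPM in Mdr1+ libraries and at 58.3, 85.8 and 69.5 CPM in Mdr1- libraries. Replicate 1 was lowest and replicate 2 highest in both fractions, and the fractions overlapped. Irf3 had a log2 fold change of 0.25 ± 0.23 (95% interval -0.28 to 0.77, adjusted p = 0.74 by edgeR, and 0.21 with the replicate block). Bcl2l12, which shares 2.6% of the exon length of Irf3 on the opposite strand, was low, with 7.94 CPM for Mdr1+ and 10.2 CPM for Mdr1- cells.

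Irf5, better known from myeloid and B cells than from T cells, was a low transcript. It was at 9.14, 8.23 and 11.8 CPM in Mdr1+ libraries and at 9.93, 7.78 and 11.0 CPM in Mdr1- libraries, from 25 to 176 counts in Mdr1+ and from 65 to 90 in Mdr1-. Replicate 3 was highest and replicate 2 lowest in both fractions, but this order was within counting error. Before TMM scaling the exact Poisson 95% intervals of replicates 2 and 3 were 7.27 to 9.82 and 7.29 to 16.6 CPM in Mdr1+. In Mdr1- they were 6.87 to 10.5 and 8.56 to 14.1 CPM. The fitted log2 fold change was -0.004, with a 95% interval of -0.72 to 0.71, so a difference of up to about that size in either direction could not be detected at this depth (adjusted p = 0.998 by edgeR). Tnpo3 overlaps 14.1% of the exon length of Irf5 on the opposite strand and had 180 CPM on average in Mdr1+ and 171 in Mdr1- cells. How strand was set in the counting is not stated in the labels or notes used, so reads of the pair in the shared stretch may not have been told apart.

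Irf1, an activator induced by interferon gamma, was higher in Mdr1+ cells in each replicate number, but the fractions overlapped. It was at 707, 880 and 955 CPM in Mdr1+ libraries, against 591, 591 and 711 CPM in Mdr1- libraries. The Mdr1- library of replicate 3 lay just above the Mdr1+ library of replicate 1. Its log2 fold change was 0.42 ± 0.18 (95% interval 0.01 to 0.84). Irf1 missed the threshold in the fit by fraction alone (unadjusted p = 0.046 and adjusted p = 0.41 by edgeR, where 11.9% of all genes had an unadjusted p under 0.05) and passed with it (0.42 ± 0.09, adjusted p = 0.015). With the block and without replicate 2 of both fractions the adjusted p was 0.058. Gm17334, a gene that overlaps 3.4% of its exon length on the opposite strand, was not analysed here.

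Irf2, which binds the same elements as Irf1 and mostly represses, was at 52.7, 63.0 and 68.4 CPM in Mdr1+ libraries and at 47.4, 48.1 and 50.9 CPM in Mdr1- libraries. The fractions did not overlap in TMM-scaled CPM, with a narrow gap between the lowest Mdr1+ and the highest Mdr1- library. Before TMM scaling they did overlap. Mdr1+ replicate 1 was then at 49.9 CPM (exact Poisson 95% interval 44.5 to 55.7), and Mdr1- replicates 2 and 3 were at 52.8 and 51.2 CPM. The log2 fold change of 0.33 ± 0.18 (95% interval -0.07 to 0.72) missed the threshold in the fit by fraction alone (adjusted p = 0.53 by edgeR) and in the blocked fit (0.14). In TMM-scaled CPM 3 of the 8 genes were higher in Mdr1+ with no overlap (Irf7, Irf2 and Irf8), beside 8.71% of all tested genes. Of the 8, 0 were lower with no overlap, beside 11% of all tested genes. Counts of Irf1 per count of Irf2 within a library, which no scaling can change, were 13.4, 14.0 and 14.0 in Mdr1+ and 12.5, 12.3 and 14.0 in Mdr1-. The ranges of that ratio overlapped.

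Irf9, the DNA-binding subunit of ISGF3, was at 181, 143 and 176 CPM in Mdr1+ libraries and at 152, 109 and 121 CPM in Mdr1- libraries. Replicate 2 was lowest in both fractions, and the Mdr1+ library of that number lay below the Mdr1- library of replicate 1. Irf9 had a log2 fold change of 0.39 ± 0.19 (95% interval -0.03 to 0.81, adjusted p = 0.46 by edgeR). With the block it was 0.40 ± 0.10 and passed (adjusted p = 0.029), but not when replicate 1 or 2 of both fractions was also left out (0.069 and 0.12). Rnf31, the next gene on the same strand, shares 2.3% of the exon length of Irf9 and differed by 0.10 on the log2 scale (adjusted p = 0.88).

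Irf4, the IRF of activated lymphocytes, had the lowest fold change of the 8 and the widest spread. It was at 755, 456 and 600 CPM in Mdr1+ libraries and at 1451, 384 and 943 CPM in Mdr1- libraries. The Mdr1+ library was the lower of its number in replicates 1 and 3 and the higher in replicate 2, with ratios of 0.520, 0.637 and 1.19. Within the Mdr1- fraction the highest library had several times the level of the lowest, and the Mdr1+ values all lay inside that range. Its log2 fold change was -0.62 ± 0.41 (95% interval -1.55 to 0.31, adjusted p = 0.64 by edgeR), and -0.45 ± 0.19 with the block (adjusted p = 0.16). Leaving out Mdr1- replicate 1 gave -0.16, and leaving out Mdr1- replicate 2 gave -0.99 (adjusted p = 0.94 and 0.15). With the block and without replicate 2 of both fractions, a fit on 4 libraries added after the data were seen, Irf4 was lower in Mdr1+ (-0.80 ± 0.11, adjusted p = 1.3e-06). In all 16 alternative fits the value for Irf4 was negative.

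Irf8, known for its part in myeloid, dendritic and B cells, was low. It was at 12.5, 14.2 and 16.5 CPM in Mdr1+ libraries and at 10.5, 8.82 and 10.5 CPM in Mdr1- libraries. The fractions did not overlap, but the counts behind these values were 35 to 303 in Mdr1+ and 62 to 102 in Mdr1-. For the Mdr1+ library of replicate 3, its 35 counts give 15.8 CPM before TMM scaling with an exact Poisson 95% interval of 11.0 to 21.9, which covers counting error only. The lowest Mdr1+ library, replicate 1, had 75 counts and 11.8 CPM, with an interval of 9.28 to 14.8. That interval held all the Mdr1- values (10.1, 9.69 and 10.6 CPM), so the gap between fractions was within counting error. The log2 fold change was 0.52 ± 0.28 (95% interval -0.11 to 1.15) and passed in neither fit (adjusted p = 0.52 by edgeR, and 0.21 when blocked).

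Markers of cells other than T cells that use Irf5 and Irf8 were examined beside these low values. Of all genes, edgeR called 0.275% higher and 1.95% lower without the block, and 5.81% and 6.57% with it. DESeq2 called 0.868% higher and 3.22% lower. Of 10 B cell markers 3 were tested and 0 passed in edgeR without the block. Their summed level was 11.3 to 22.8 CPM in Mdr1+ and 6.80 to 11.1 CPM in Mdr1- libraries, carried mostly by Cd22 (13.0 CPM for Mdr1+ and 5.85 for Mdr1-) and Cd79a (4.35 for Mdr1+ and 1.30 for Mdr1-), while Ms4a1 had 1 count in each of 2 Mdr1- libraries and 0 in the other 4. Cd22 was higher in Mdr1+ with the block (adjusted p = 0.037), but no B cell marker was called with the block when replicate 1 or 2 of both fractions was left out. Of 12 dendritic cell markers 5 were tested. In edgeR 0 passed without the block (1 lower in DESeq2, 1 lower with no low-count filter and 2 lower without Mdr1+ replicate 3), and 2 fell with the block, Cd74 (25.3 CPM for Mdr1+ and 53.8 for Mdr1-) and H2-Aa. That list summed to 24.6 to 53.2 CPM in Mdr1+ and 63.9 to 93.5 CPM in Mdr1- libraries, and Clec9a and Cd209a were at 0 in all libraries. Of 10 macrophage and monocyte markers 3 were tested, 0 passed in edgeR without the block (1 lower in DESeq2), and Lyz2 fell with it, though not without replicate 3 of both fractions. They summed to 299 to 375 CPM in Mdr1+ and 253 to 505 CPM in Mdr1- libraries, mostly Ccr2 and Cd68, of which Ccr2 is also a receptor of effector T cells. Il1b and Cd14 had 216 and 139 counts in the Mdr1- library of replicate 3 and at most 8 and 2 in any other. Markers of CD8 T cells summed to at most 2.20 CPM and those of neutrophils to at most 1.86 CPM. The part of these cells in the values of Irf5 and Irf8 was not tested.

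**Figure D2:**
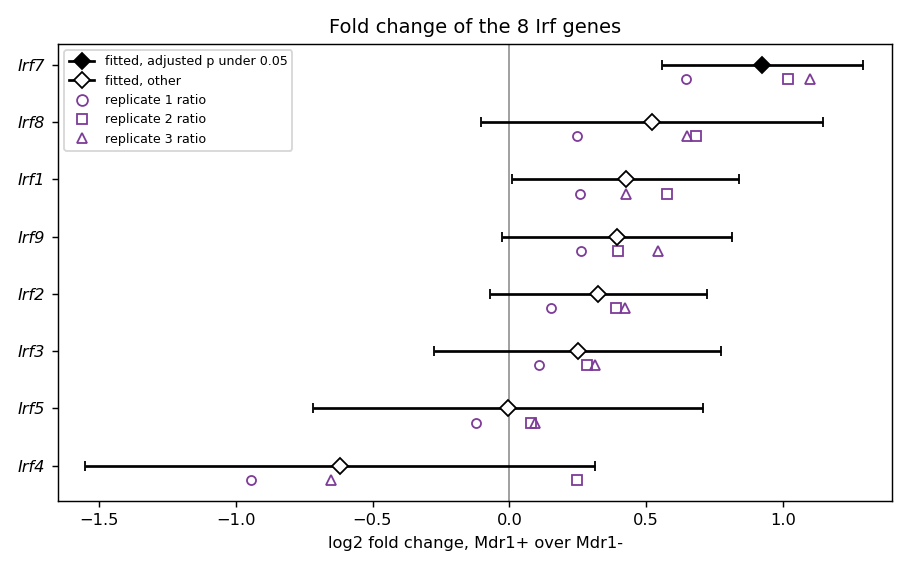
Log2 fold change of Mdr1+ over Mdr1- (x axis) of the 8 IRF genes (y axis, ordered by value); diamonds are fitted values with 95% intervals, filled where the adjusted p is under 0.05 in edgeR without the block, and open purple symbols are log2 ratios of libraries of one replicate number. Only the Irf7 diamond is filled, at 0.92, and Irf4 has ratios on both sides of 0.

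How much of each gene's spread went with the fraction and how much with the replicate number was read from sums of squares of log2 CPM over the 6 libraries. The fraction carried 94.4% of the spread of Irf7, 76.9% of Irf8, 66% of Irf2, 63.9% of Irf1 and 56.2% of Irf9. It carried 16.1% for Irf3, 12.2% for Irf4 and 0.18% for Irf5, where the replicate number carried 81.5%, 72.3% and 94.6%. The exact Poisson intervals of Irf5 overlapped among all 6 libraries, so its split may be counting error. The median over all tested genes was 19.2% for the fraction and 54.2% for the number. Irf3 and Irf4 had opposite orders over the replicate numbers: in both fractions Irf3 was lowest and Irf4 highest in replicate 1, and Irf3 highest and Irf4 lowest in replicate 2.

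**Figure D3:**
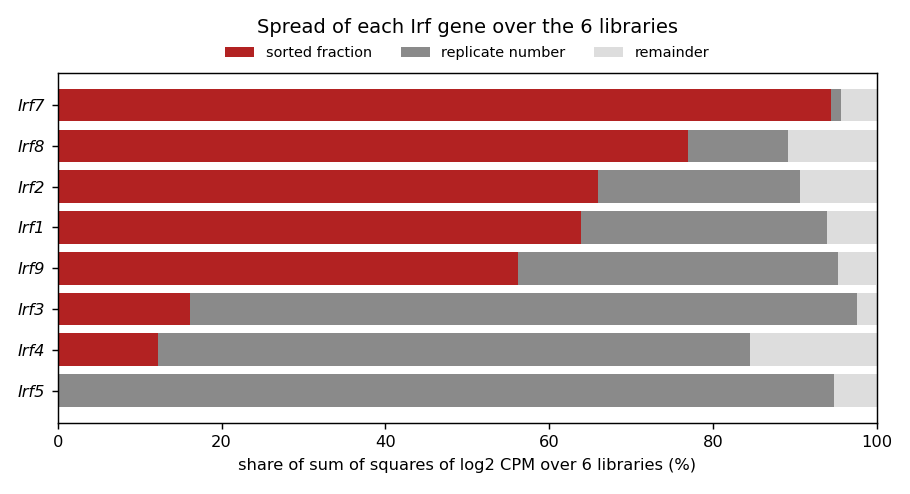
Share of the sum of squares of log2 CPM over 6 libraries (x axis, %) that goes with the sorted fraction, the replicate number and the remainder, for each IRF gene (y axis). The fraction's share runs from 94.4% for Irf7 to 0.18% for Irf5.

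Levels between genes were compared per kilobase of exons (union of GENCODE M21 exons, build GRCm38, and CPM before TMM scaling). In Mdr1+ cells Irf1 was highest at 209 ± 35 CPM per kb, then Irf4 at 119 ± 25.1, Irf7 at 43.4 ± 6.35, Irf9 at 30.2 ± 2.40, Irf3 at 24.1 ± 6.98, Irf2 at 8.11 ± 1.19, Irf5 at 3.26 ± 0.54 and Irf8 at 1.99 ± 0.29 CPM per kb (SD, n = 3). In Mdr1- cells Irf4 had the highest mean, at 188 ± 99.9 CPM per kb, and Irf1 followed at 162 ± 18.1, Irf9 at 23.9 ± 2.79, Irf7 at 23.8 ± 2.27, Irf3 at 21.3 ± 5.59, Irf2 at 6.75 ± 0.50, Irf5 at 3.35 ± 0.44 and Irf8 at 1.44 ± 0.06 CPM per kb (SD, n = 3). Per kb, Irf1 stood above Irf4 in every Mdr1+ library, while in Mdr1- their ranges overlapped. In Mdr1+ replicate 1 that order came only with the division by length, from 4252 counts of Irf1 and 4543 of Irf4. Per kb, Irf7 stood above Irf9 in every Mdr1+ library without overlap of their ranges. This order too came with the exon lengths used, 3.78 kb for Irf7 and 5.39 kb for Irf9. Counts of Irf7 per count of Irf9 were 0.81, 1.27 and 0.98 in Mdr1+ libraries. In Mdr1- cells Irf7, Irf9 and Irf3 could not be ordered beyond their spread. Within libraries, counts of Irf7 per count of Irf3 were 2.34, 1.74 and 2.01 in Mdr1+ and 1.61, 1.04 and 1.16 in Mdr1-, with no overlap. Counts of Irf8 per count of Irf4 were 0.0165, 0.0311 and 0.0275 in Mdr1+ and 0.00723, 0.0230 and 0.0112 in Mdr1-, and these overlapped.

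Genes with the most similar pattern over the 6 libraries were taken as the 3 highest Pearson correlations of log2 CPM among 8536 genes with a mean log2 CPM of at least 3. For Irf7 they were Zrsr1 (r = 0.999), Per3 (0.996) and Mbp (0.995), of which Zrsr1 and Per3 were also called higher in Mdr1+ (log2 fold change 1.04 and 1.78, adjusted p = 0.019 and 0.021). For Irf4 they were Usp54 (0.989), the cytokine gene Tnf (0.987) and Nipal1 (0.984). For Irf8 they were the cytosolic DNA sensor gene Aim2 (0.996), Phc3 (0.995) and Polr3b (0.993), and for Irf1 Zdhhc18 (0.996), Zrsr2 (0.991) and the kinase gene Fyn (0.988). The best correlation of each member lay between 0.989 (Irf4) and 0.999 (Irf7), and that of Irf5 was 0.995 with Dram2. These values describe 6 points that share their libraries. Zrsr1 and Per3 were picked for following Irf7 over those libraries, so their calls are no separate observation. Among the members themselves Irf1 and Irf2 had r = 0.98, Irf2 and Irf8 0.94, Irf1 and Irf8 0.934, and Irf3 and Irf4 -0.854.

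Of 21 sensors, adaptors and kinases upstream of IRF3, IRF5 and IRF7, 17 were tested. In edgeR 0 passed without the block, and 2 rose with it, beside 5.81% of all genes. DESeq2, without a block, called 1 higher, Ikbkb. Ikbkb, a kinase of the NF-kappa B pathway that also phosphorylates IRF5, was at 313, 363 and 339 CPM in Mdr1+ libraries and at 195, 206 and 219 CPM in Mdr1- libraries. The fractions were well apart, by 0.71 ± 0.16 on the log2 scale (adjusted p = 0.055 by edgeR, 0.0012 when blocked, and 0.0016 in DESeq2). Ifih1, the sensor MDA5, had 0.52 ± 0.21 (adjusted p = 0.36, and 0.031 with the block). That blocked call was lost without replicate 1 or 2 of both fractions (0.083 and 0.29). The list had a median log2 fold change of 0.07, against 0.04 for all tested genes, and 10 of its 17 values were positive, against 54.2% of all. The Toll-like receptor genes Tlr3, Tlr4, Tlr7 and Tlr9 were too low to test.

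Of 19 interferon genes listed 17 were in the table, and 14 of these, Ifnb1 and all the Ifna genes among them, were at 0 in all 6 libraries. Ifne and Ifnk had 1 count each. A count of 0 in the deepest library allows up to 0.144 CPM. Ifng, the signature cytokine of Th1 cells, was at 355, 208 and 181 CPM in Mdr1+ libraries and at 291, 144 and 230 CPM in Mdr1- libraries. The fractions overlapped widely, and the log2 fold change was 0.17 ± 0.31 (adjusted p = 0.89 by edgeR). With the block and without replicate 3 of both fractions it passed as higher in Mdr1+ (0.38, adjusted p = 0.012), while without Mdr1+ replicate 1 it was -0.22.

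Among 17 tested of 18 interferon receptor, JAK, STAT and inhibitor genes 0 passed in edgeR without the block, and 4 rose with it, beside 5.81% of all genes. DESeq2 and the fit with no low-count filter each called 1, Socs3. The list's median log2 fold change was 0.24, and 14 of 17 were positive, against 54.2% of all tested genes. Ifngr1, the ligand-binding chain of the interferon gamma receptor, was at 1270, 707 and 1031 CPM in Mdr1+ libraries and at 706, 409 and 636 CPM in Mdr1- libraries. The lowest Mdr1+ library was just above the highest Mdr1- library, and within numbers the ratios were 1.80, 1.73 and 1.62 (log2 fold change 0.78 ± 0.27, adjusted p = 0.27 by edgeR, and 0.00046 with the block). Socs3, an inhibitor of JAK signalling, differed by 0.73 ± 0.16 (adjusted p = 0.059, 0.0021 when blocked, 0.0009 in DESeq2 and 0.049 with no filter). Il10rb, a chain shared by receptors of interleukin 10 and type III interferons, had 0.72 ± 0.27 (adjusted p = 0.30 by edgeR, and 0.025 with the block). The kinase gene Jak1 had 0.30 ± 0.18 (adjusted p = 0.60 by edgeR, and 0.030 with the block). With the block, leaving out replicate 1 of both fractions gave an adjusted p of 0.053 for Il10rb and 0.11 for Jak1. Leaving out replicate 2 gave 0.24 and 0.12. Stat2, a subunit gene of ISGF3 chosen after its values were seen, had -0.008 (adjusted p = 0.99).

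Of 30 ISGF3 target genes 27 were tested. In edgeR 0 passed without the block, and 3 rose with it, beside 5.81% of all genes. With the block, 1 rose without replicate 1 of both fractions, beside 436 of 11081 genes, and 1 without replicate 2, beside 259 of 10707. Without replicate 3, 8 rose, beside 1131 of 11177 genes. The list's median log2 fold change was 0.30, and 25 of 27 were positive, against 0.04 and 54.2% for all tested genes. In 7 of 27 (25.9%) the fractions did not overlap, all higher in Mdr1+, beside 8.71% of all tested genes. Since the genes of a response vary together and the list was drawn up with earlier results known, these counts describe the list and are no test of it. The share higher with no overlap was 23.5% for the sensors, adaptors and kinases. It was 11.8% for both the receptor list and the partner list, 10.5% downstream of IRF4 and 10% for IRF1 targets. Ddx60, a helicase-like gene of the antiviral response, was at 76.6, 57.3 and 73.1 CPM in Mdr1+ libraries and at 47.3, 26.2 and 26.7 CPM in Mdr1- libraries. Every Mdr1+ library lay above every Mdr1- one (log2 fold change 1.04 ± 0.27, adjusted p = 0.11 by edgeR, and 0.0043 with the block). Without the block it passed in DESeq2 (0.016), with no low-count filter (0.024) and without Mdr1- replicate 1 (0.030). Rtp4, an interferon-induced chaperone gene, had 1.24 ± 0.43 and Ifi35 0.51 ± 0.18 (adjusted p = 0.26 and 0.28 by edgeR). With the block both passed (adjusted p = 0.032 and 0.025). Both blocked calls were lost without replicate 1 of both fractions (0.11 for Rtp4 and 0.098 for Ifi35) and without replicate 2 (0.060 for Rtp4 and 0.24 for Ifi35).

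Of 24 IRF1 target genes 20 were tested. In edgeR 0 passed without the block, and 5 rose and 2 fell with it, beside 5.81% and 6.57% of all genes, around a median log2 fold change of 0.18 with 13 of 20 positive. Gbp2 and Gbp3, guanylate-binding protein genes of the interferon gamma response, had log2 fold changes of 0.60 ± 0.30 and 0.46 ± 0.26 (adjusted p = 0.485 and 0.563 by edgeR). With the block both passed (adjusted p = 0.0028 and 0.010). Without replicate 2 of both fractions the blocked call of Gbp3 was lost (0.065). That blocked fit had 1 gene of the list higher and 1 lower, beside 259 and 392 of 10707 genes. Without replicate 1, 5 were higher and 1 lower, beside 436 and 694 of 11081. Without replicate 3, 6 were higher and 3 lower, beside 1131 and 1347 of 11177. Among the 2 that fell with the block over all 6 libraries was Ifi30, a thiol reductase gene of antigen processing (-1.14 ± 0.31, adjusted p = 0.13 by edgeR, and 0.039 when blocked). DESeq2 without a block called it (0.029), and its blocked call was lost without replicate 1 or 2 of both fractions (0.16 and 0.33). Ifi30 was low, with 5.26 CPM for Mdr1+ and 11.7 for Mdr1-. The immunoproteasome genes Psmb8, Psmb9 and Psmb10, chosen after their values were seen, had log2 fold changes of -0.09, -0.33 and -0.02, none called in either fit.

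**Figure D4:**
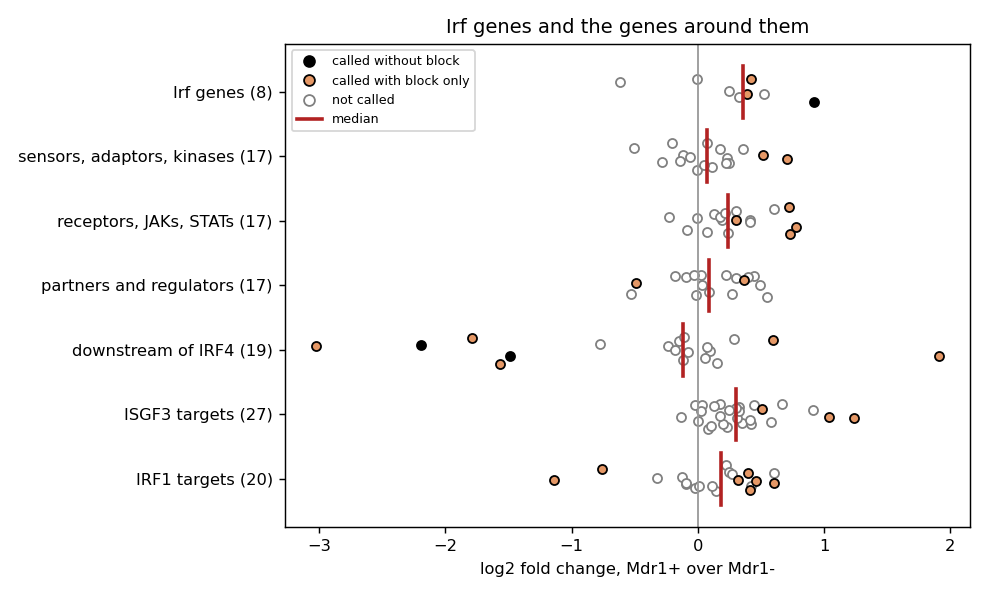
Each tested gene of the IRF family and of the lists around it, by its log2 fold change, Mdr1+ over Mdr1- (x axis) (lists down the y axis, number tested in parentheses); points are genes, black where called by edgeR without the block, orange where called only with the block and open otherwise, and red bars are medians. The ISGF3 targets lie mostly right of 0 with a median of 0.30, and the list downstream of IRF4 has the widest range.

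Partners and regulators of IRF2, IRF4 and IRF8 gave 0 calls in edgeR without the block among 17 tested of 21 listed. With the block 1 rose and 1 fell, beside 5.81% and 6.57% of all genes, a share near that background in the fit on all 6 libraries. Without replicate 1 of both fractions the blocked fit gave 4 higher and 1 lower, beside 436 and 694 of 11081 genes. Without replicate 2 it gave 1 and 0, beside 259 and 392 of 10707. Without replicate 3 it gave 2 and 2, beside 1131 and 1347 of 11177. Batf, the AP-1 factor that binds composite elements with IRF4, was at 113, 139 and 117 CPM in Mdr1+ libraries and at 168, 198 and 153 CPM in Mdr1- libraries. Every Mdr1+ library lay below every Mdr1- library (log2 fold change -0.49 ± 0.17, adjusted p = 0.28 by edgeR, 0.0098 with the block, and 0.054 with the block and without replicate 2 of both fractions). Stat3, which acts with IRF4 on Th17 genes, had 0.37 ± 0.24 (adjusted p = 0.625 by edgeR, and 0.019 with the block). Spib, a PU.1 family partner of IRF4 and IRF8 in B and dendritic cells, was too low to test, at 0 to 4 counts, and Spi1 was not analysed here.

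Genes reported downstream of IRF4 in T cells moved in both directions while Irf4 itself was not called. Of 20 listed 19 were tested, and 2 fell in edgeR without the block, beside 1.95% of all genes. With the block 2 rose and 5 fell, beside 5.81% and 6.57%. Without a block, DESeq2 called 1 higher and 4 lower, beside 0.868% and 3.22% of the genes it tested. The fit with no low-count filter called 1 higher and 3 lower, beside 52 and 287 of 16306 genes. The list's median log2 fold change was -0.12. Ccr6, a chemokine receptor gene of Th17 cells, was among those that fell, at 7.64, 8.18 and 6.13 CPM in Mdr1+ libraries and at 28.2, 31.0 and 44.3 CPM in Mdr1- libraries. The fractions were far apart in each replicate number. The part of Irf4 in the values of this list was not tested. For Ccr6 the log2 fold change was -2.20 ± 0.28 (adjusted p = 0.0057 by edgeR). Its call without the block was lost without replicate 2 or 3 of both fractions (0.054 and 0.17). Il17a, the cytokine gene of Th17 cells, was at 7.48, 1.78 and 14.2 CPM in Mdr1+ libraries and at 80.6, 27.8 and 48.7 CPM in Mdr1- libraries (adjusted p = 0.062 by edgeR, 0.0009 with the block, 7.3e-05 in DESeq2, and 0.031 without Mdr1- replicate 2). Il10, which encodes an anti-inflammatory cytokine, lay the other way, with ratios of 3.13, 6.82 and 2.78 (adjusted p = 0.050 by edgeR, just over the threshold, and 0.0067 with the block). Without the block Il10 passed in DESeq2 (0.00042), with no low-count filter (0.01) and without Mdr1- replicate 1 (0.048), and its blocked call was lost without replicate 2 of both fractions (0.054). The 2 calls became 1 without Mdr1+ replicate 1 or 2 or Mdr1- replicate 1 or 3, and 4 without Mdr1- replicate 2. Over all genes those fits called 142, 121, 196, 75 and 131 lower, in that order. The 2 calls became 1 without replicate 1 of both fractions and 0 without replicate 2 or 3 of both. Over all genes these fits called 108, 43 and 0 lower, so the last called none of any kind. All of these fits tested between 10707 and 11306 genes.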

How the data were processed

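Raw read counts per gene symbol of 6 libraries were used as the authors deposited them in 1 table. The submitters' processing notes list TopHat, HTSeq, DESeq2 and mm9. No version, annotation or strand setting is given in the sources used. The kit was a stranded one for total RNA (labels' protocols). Rows of unassigned reads stayed out of totals and tests; reads without a unique position were 67% to 73.2% of entries in replicates 1 and 2. The columns of replicate 3 stand in another order than the names: as deposited they had Spearman correlations of 0.424 to 0.46 with the other 4 libraries, and 0.926 to 0.962 once assigned to the names sorted ignoring case, which was done before any test. This departs from a test on the table as it stands.

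Groups and numbers came from the sample titles. Tests used edgeR 4.0.16 in R 4.3.3: TMM scaling, filterByExpr by group, robust quasi-likelihood fit with group as the only term, and Benjamini-Hochberg adjustment over the 10897 genes tested, called at 0.05. Standard errors are the log2 fold change over the root of F, and 95% intervals use the t distribution with the fit's degrees of freedom. The procedure was tested on simulated data. Within a group, libraries differed beyond sampling noise (chi-square per degree of freedom 14.5 to 53.7). Deviations of log2 CPM (prior count 2) from the group means correlated at 0.409, 0.568 and 0.213 between libraries of one number. All were over 0.1, so the numbers were taken as a possible pairing, which no label states. With 3 libraries per group these values cannot settle whether the libraries are pairs. The fit by group alone, fixed as the main one, was kept, and the fit with the number as a block is given beside it.

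Alternatives were RLE scaling, DESeq2 1.42.0, no filter, the replicate block, and leaving out libraries or numbers. Named genes were the 8 members, up to 4 genes per pathway list by call and size, and called or most abundant markers; the members and lists were chosen with earlier results of these data known. Listed symbols without a row of that name, such as Il28a, were not analysed here, and some genes that the naming rule picks are not reported here. Promoters came from RefSeq tables by symbol, with all 8 genes matched.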

Additional observations from a re-analysis of the deposited data

How the results depend on the processing

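Of the IRF genes, 1 was called higher with RLE scaling, in DESeq2 and with no low-count filter, and 3 with the replicate block; leaving out libraries or replicate numbers gave 0 to 1 higher and 0 lower without the block, and 2, 1 and 3 higher and 0, 1 and 0 lower with it (without replicate 1, 2 and 3). Irf1, Irf2, Irf3, Irf7, Irf8 and Irf9 kept a positive and Irf4 a negative log2 fold change in all 16 alternative fits. Irf5 changed sign around 0: it was 0.016 with the block, 0.021 with the block and without replicate 1, and ran from -0.15 to 0.11 when libraries were left out. Ifng ran from -0.22 to 0.39 when libraries were left out, with -0.0066 in the blocked fit without replicate 2. Over all genes 30 were higher and 212 lower without the block. DESeq2 gave 103 and 382, the replicate block 633 and 716, and no filter 52 higher. Leaving out 1 library gave 1 to 15 higher and 75 to 196 lower. Leaving out a replicate number gave 0 to 5 and 0 to 108 without the block, and 436, 259 and 1131 higher and 694, 392 and 1347 lower with it (without replicate 1, 2 and 3), the blocked ones chosen after seeing the data. Depth limits Irf5 and Irf8 most, with as few as 25 and 35 counts in a library. The cause of these shifts was not tested.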
